A study of Rattus norvegicus with 24 samples.

Results

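A set of 10 gene symbols of glucocorticoid signalling and of the restraint of mTOR complex 1 (mTORC1) was followed in the tibialis anterior muscle of aged rats: Nr3c1, Fkbp5, Tsc22d3, Klf9, Klf15, Cebpd, Arrdc2, Ddit4, Ddit4l and Ddit4l2. Members were taken by symbol from the deposited expression table, with 1 row a symbol, and 9 of the 10 symbols had a row among 13458 symbols in all. Ddit4l was not analysed here. The symbols were chosen by their roles, and Arrdc2 and Ddit4l2 were in part selected on their strong change in these same limbs (log2 fold changes of treated limbs from untreated ones), so their values and folds are given as a description without a test. Tests between groups, between limbs and across animals therefore cover the other 7 genes.

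Glucocorticoid hormones bind the receptor encoded by Nr3c1, which leaves its chaperone complex, enters the nucleus and activates target genes that include feedback inhibitors and transcription factors. In skeletal muscle the hormone is known for promoting protein breakdown and for lowering protein synthesis, the latter in part through inhibitors of mTORC1, the kinase complex that drives translation and growth. Ddit4 and Ddit4l encode related inhibitors (REDD1 and REDD2) that act on mTORC1 through the TSC complex.

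Male Fischer 344 rats aged 23 ± 1 months received tetrodotoxin (TTX), a blocker of voltage-gated sodium channels, from an osmotic pump at the left common peroneal nerve, which silences the dorsiflexor muscles while plantarflexion is kept. The left muscle was taken after 6 to 7 days of TTX (atrophy, 3 animals), after that period plus 9 days of recovery (recovery, 3 animals), or after a further 5 to 6 days of TTX from a second pump (repeated atrophy, 3 animals). Right muscles of these 9 animals were left untreated and served as control, while 3 sham-operated animals, 1 at each time point, gave 3 left and 3 right muscles that were never exposed to TTX. RNA was sequenced from 24 muscles of 12 animals, and expression is given as CPM, that is per 1000000 reads counted in a sample.

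In these whole-muscle samples, fewer cells of a type and less RNA per cell cannot be told apart. All 8 myofibre markers were detected and summed to between 84500 and 212000 CPM over all limbs, and no marker of the other 7 cell types examined was at 0 in a whole group. The depth inferred from the smallest steps of the values ran from 18900000 to 30900000 reads per sample. Several libraries stood apart. In atrophy animal 2, only 0.9% of 6766 expressed rows differed by at least 2-fold between the limbs, against 28.5% and 7.4% in the other atrophy animals, 19.4% to 29.6% in repeated atrophy and 0.5% to 1.9% in sham animals. In sham animal 3, both limbs held the highest levels of Klf9, Klf15, Cebpd, Arrdc2 and Ddit4 of all limbs, Arrdc2 of the right limb excepted. The median of all rows lay 0.20 above 0 on the log2 scale in repeated atrophy and 0.22 above 0 after atrophy, both relative to control. A second scaling of each sample, by the trimmed mean of its log ratios to the others (called rescaling below), brought these medians to -0.01 and 0.00. Calls of the 7 genes tested that it ended or added are given beside the main ones.

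The promoters of 3 genes are shown because Ddit4l2 and Arrdc2 had the lowest left limbs relative to right in repeated atrophy, while Klf9 did not pass the test. The files list Ddit4l2 on rat chromosome 2 between Emcn and H2az1, and RefSeq lists Ddit4l between the same neighbours, so the Ddit4l promoter is the one printed, and whether both symbols name 1 gene was not settled. Each run is the 250 bases upstream of the annotated start, taken from RefSeq (assembly GRCr8) and written 5′ to 3′ on the strand of the gene, with motif matches in capitals.
Ddit4l, chr2:228801457-228801706, plus strand: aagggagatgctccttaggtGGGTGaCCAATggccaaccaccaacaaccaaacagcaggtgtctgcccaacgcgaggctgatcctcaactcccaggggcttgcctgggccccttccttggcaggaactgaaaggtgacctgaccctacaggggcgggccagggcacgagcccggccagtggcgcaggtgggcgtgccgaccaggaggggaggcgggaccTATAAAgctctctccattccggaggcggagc
Arrdc2, chr16:18635633-18635882, plus strand: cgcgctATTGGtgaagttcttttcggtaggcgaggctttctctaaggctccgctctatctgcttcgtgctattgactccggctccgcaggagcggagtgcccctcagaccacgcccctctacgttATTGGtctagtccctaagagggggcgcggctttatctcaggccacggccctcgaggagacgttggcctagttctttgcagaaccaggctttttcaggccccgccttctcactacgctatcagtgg
Klf9, chr1:230126396-230126645, plus strand: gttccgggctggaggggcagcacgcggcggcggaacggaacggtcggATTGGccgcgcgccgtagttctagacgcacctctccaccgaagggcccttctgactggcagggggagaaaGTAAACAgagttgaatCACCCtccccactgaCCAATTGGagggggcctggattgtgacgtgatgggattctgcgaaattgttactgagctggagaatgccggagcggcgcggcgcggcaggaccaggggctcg
Promoters were found for 8 of the symbols (11 promoters), and both strands were searched. In the Ddit4l window a TATA box (TATAAA) began 31 bases before the start, beside a CCAAT box and a CACCC motif of the KLF family further upstream. The Arrdc2 window held 2 CCAAT boxes, both on the opposite strand. The Klf9 window held a FoxO motif (GTAAACA) 133 bases before the start, a CACCC motif, and 3 CCAAT matches of which a pair overlapped. CCAAT was present in 7 of the 11 member promoters and in 34.0% of 33469 rat promoters of the same length. CACCC was present in 8 of 11, against 49.2% of all, and GTAAACA and TATAAA were each present in 2 of 11, against 3.2% and 12.9% of all. The palindromic glucocorticoid response element and its core letters AGAACA were found in none of the 11 windows, against 0.4% and 17.5% of all promoters, which says only that these letters were absent from these windows.

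A gene passed where limma on log2(CPM + 1) gave a 1.2-fold or larger change and a p of 0.05 or less after Benjamini-Hochberg adjustment over all rows tested. In repeated atrophy, between the limbs of each animal and with animal as a block, 5 of the 7 genes passed: Fkbp5, Klf15, Cebpd and Ddit4 fell, and Nr3c1 rose. Among all 14134 rows, 32.6% passed in that comparison, 26.1% higher and 6.51% lower. Against the 9 pooled control limbs, 3 of the 7 passed (Nr3c1 higher, Cebpd and Ddit4 lower), where 34.3% of all rows passed, 28.1% higher and 6.24% lower. The median of the 7 genes was -0.66 within animals and -0.58 against control, while that of all rows was 0.20 in both. After rescaling, the split of all rows within animals moved from 3688 higher and 920 lower to 1870 higher and 1702 lower, and the same 4 of the 7 genes were lower, where 12% of all rows were. Against control the split moved from 3936 and 876 to 1842 and 1697, with Cebpd, Klf15 and Ddit4 lower and 12.1% of all rows lower.

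After the first period of TTX, limma called none of the 7 genes against control, where 22.6% of all rows passed, and 1 of the 7 (Tsc22d3) had an unadjusted p below 0.05, as did 37.1% of all rows. Within atrophy animals none of the 7 and 0% of all rows passed, while 3 genes (Fkbp5, Klf15 and Ddit4) and 22.7% of all rows had an unadjusted p below 0.05. Without atrophy animal 2, Fkbp5, Klf15 and Cebpd passed within animals, where 16.9% of all rows passed and 2.44% of all rows were lower, and without atrophy animal 1 or 3 none of the 7 did. After recovery none of the 7 passed against control, where 7.73% of all rows passed, and none within animals, where 0.891% passed. Fkbp5 and Klf15 had an unadjusted p below 0.05 in both recovery comparisons, as did 25.1% of all rows against control and 21.3% within animals. Within sham animals none of the 7 and 0% of all rows passed, and no gene of the 7 had an unadjusted p below 0.05.

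**Figure D1:**
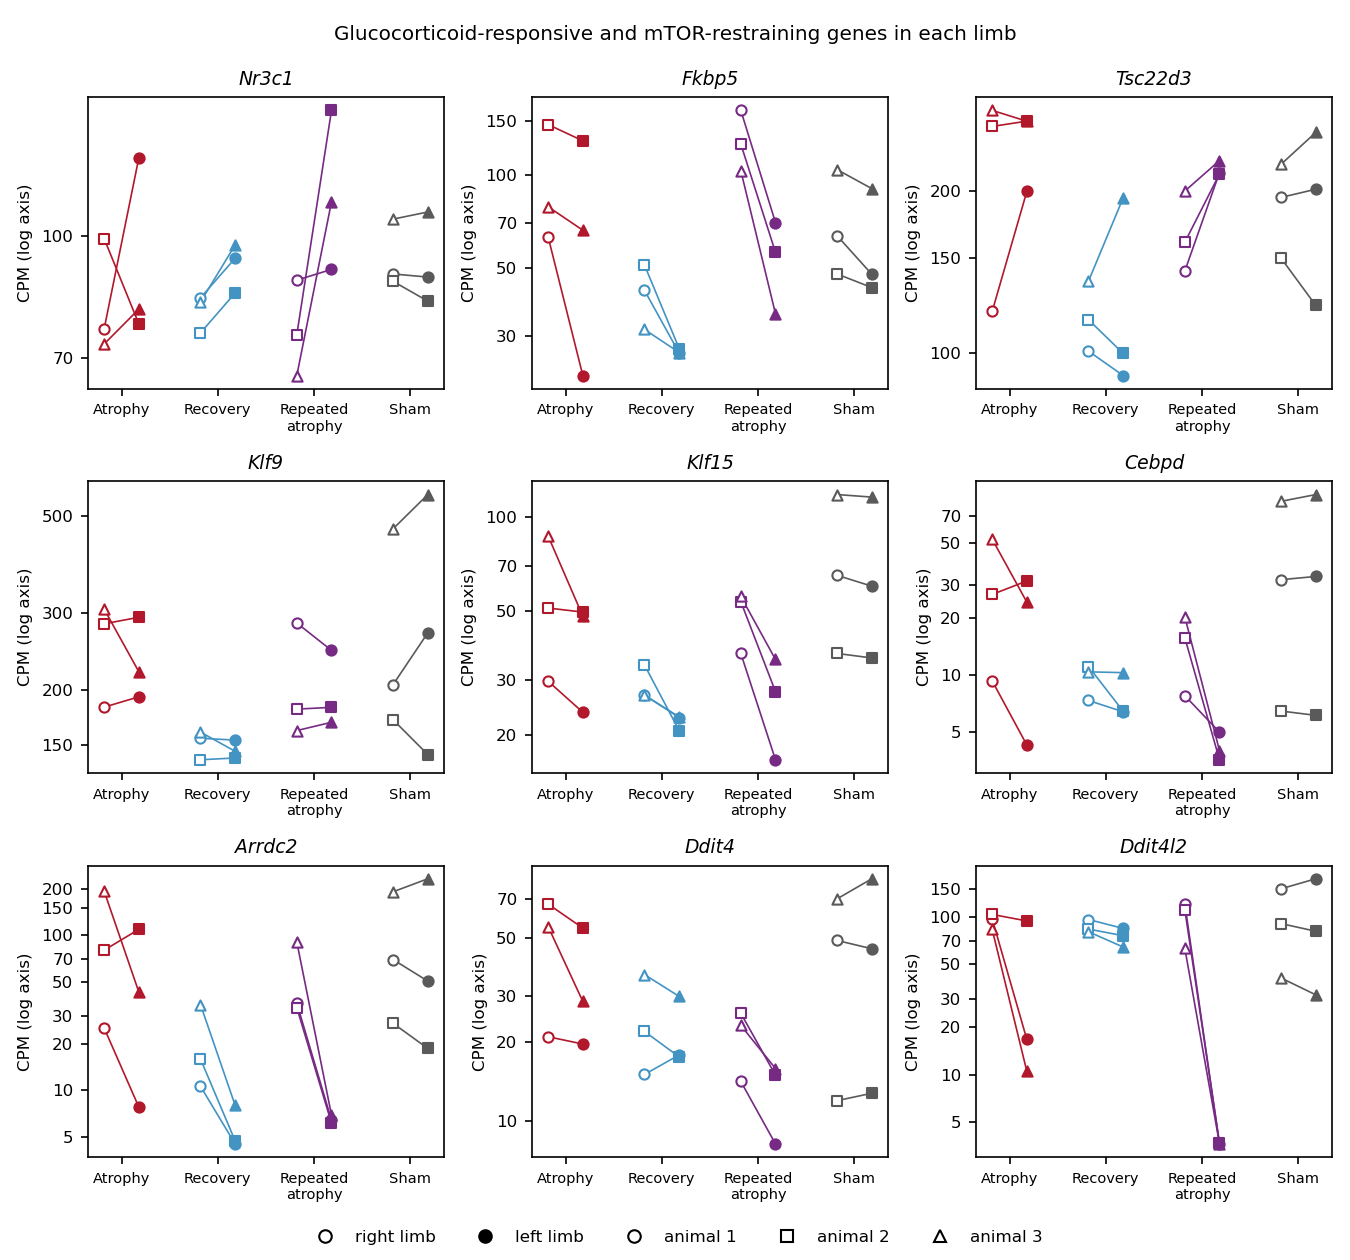
Levels of the 9 genes in each of the 24 limbs (CPM, log axis), with open symbols for right limbs, filled symbols for left limbs, lines joining the limbs of 1 animal, and the symbol shape giving the animal. Ddit4l2 fell from between 63.1 and 120.5 CPM to between 3.64 and 3.69 CPM in the 3 repeated atrophy animals, and Arrdc2 lay between 4.50 and 7.98 CPM in the left limbs of recovery and repeated atrophy.

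Nr3c1, the glucocorticoid receptor (chr18:31271681-31359736, rn7, minus strand), was measured at 66.5 to 99.1 CPM in the 9 control limbs, with a median of 76.2 CPM. Its left-limb levels in repeated atrophy were 90.6, 144 and 110.3 CPM, against 87.8, 74.9 and 66.5 CPM in the right limbs of animals 1, 2 and 3. Each left limb was above its own right limb, by little in animal 1. Within animals the log2 fold change was 0.57 ± 0.19 (SE, adjusted p = 0.038, limma), and against control it was 0.50 ± 0.16 (adjusted p = 0.019). With animal as a block the comparison against control no longer passed (adjusted p = 0.072), and after rescaling neither did (0.19 within animals, adjusted p = 0.37, and 0.12 against control, adjusted p = 0.58). Without repeated atrophy animal 2 the within-animal value was 0.38 (adjusted p = 0.27) and without animal 3 it was 0.49 (adjusted p = 0.18). It also missed the threshold, at the same 0.57, without atrophy animal 3, recovery animal 1 or 2, or sham animal 1 or 3 (adjusted p = 0.054 for the last). Against control it did not pass without repeated atrophy animal 2 or 3. After recovery the left limbs were at 93.6, 84.6 and 97.3 CPM and the right limbs at 83.4, 75.3 and 82.4 CPM, a difference of 0.19 ± 0.19 on the log2 scale that did not pass (adjusted p = 0.59). After atrophy the left limbs were at 125, 77.3 and 80.7 CPM and the right limbs at 76.2, 99.1 and 72.9 CPM, so that animal 2 ran opposite to the others. Sham limbs lay between 82.6 and 107 CPM, with a left to right difference of -0.02 ± 0.19.

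Fkbp5 encodes FKBP51, an immunophilin in the receptor complex that is induced by glucocorticoids and lowers the receptor's affinity for hormone (chr20:6457207-6541836, rn7, minus strand). It was lower in the left limb of all 9 TTX animals. In repeated atrophy it stood at 70.1, 56.1 and 35.4 CPM on the left and at 162, 126 and 103 CPM on the right, with no overlap. That difference of -1.29 ± 0.22 on the log2 scale, 2.45-fold, passed within animals (adjusted p = 0.0015, limma) and under rescaling (-1.66, adjusted p = 0.0011). Against the pooled control limbs the same left limbs gave -0.58 ± 0.48 (adjusted p = 0.39), and a block on animal made that comparison pass (-1.29, adjusted p = 0.0056). The control limbs themselves spread 5.15-fold, from 31.5 to 162 CPM.
The 3 recovery left limbs were close together at 26.4, 27.3 and 26.5 CPM and below all 9 control limbs, their own right limbs being at 42.2, 51.0 and 31.5 CPM. The difference from control was -1.51 ± 0.48, which missed the threshold (adjusted p = 0.059) and passed after rescaling (-1.54, adjusted p = 0.048) and without atrophy animal 2 (-1.40, adjusted p = 0.045). Paired by animal the difference was smaller and did not pass, at -0.59 ± 0.22 within animals (adjusted p = 0.16), -0.59 against control with the animal block (adjusted p = 0.24) and -0.72 within animals after rescaling (adjusted p = 0.12). After atrophy, left limbs at 22.3, 129 and 66.2 CPM faced right limbs at 62.9, 146 and 78.9 CPM. The within-animal difference was -0.63 ± 0.22 (adjusted p = 0.13), and it ranged from -0.85 ± 0.24 without animal 2 (adjusted p = 0.035) to -0.21 without animal 1, which did not pass. Sham left limbs, at 47.6, 43.1 and 90.4 CPM, were also each below their right limbs, at 63.5, 47.7 and 104 CPM, by -0.25 ± 0.22 (adjusted p = 1).

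Tsc22d3 encodes GILZ, a leucine zipper protein that mediates anti-inflammatory effects of glucocorticoids (chrX:104217898-104221524, rn7, minus strand). Repeated atrophy left limbs were at 216, 215 and 228 CPM and right limbs at 142, 161 and 199.9 CPM, each left limb above its right. The within-animal difference of 0.40 ± 0.18 missed the threshold (adjusted p = 0.11, limma) and was 0.02 after rescaling. Recovery left limbs, at 91.0, 100.0 and 194 CPM, were below the right limbs, at 101, 116 and 136 CPM, in 2 of 3 animals. Atrophy left limbs were at 199.6, 269 and 269 CPM and right limbs at 119.6, 263 and 282 CPM, so only animal 1 differed appreciably between limbs. Recovery against atrophy gave -1.01 ± 0.35 (adjusted p = 0.052), which passed under 4 of the alternatives that keep all animals. It was -0.67 after rescaling (adjusted p = 0.16) and -0.18 with the animal as a block.

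Klf9 and Klf15 encode Krüppel-like transcription factors that are direct targets of the receptor, and Klf15 also drives branched-chain amino acid breakdown in muscle. Klf9 (chr1:220700108-220725030, rn7, plus strand) gave no call in any comparison. In repeated atrophy its left limbs were at 246, 183 and 169 CPM and its right limbs at 284, 181 and 162 CPM, a within-animal difference of -0.04 ± 0.15 (adjusted p = 0.88). Its limbs were nearly level in recovery too, at 154, 140 and 145 CPM on the left and 155, 139 and 160.2 CPM on the right. In atrophy, left limbs at 193, 293 and 220.1 CPM faced right limbs at 183, 283 and 306 CPM. The widest spread was between sham animals, whose limbs ran from 142 to 559 CPM.

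Klf15 (chr4:122965807-122978404, rn7, plus strand) was lower on the left in all 9 TTX animals and, by little, in all 3 sham animals. Repeated atrophy left limbs were at 16.6, 27.5 and 34.9 CPM and right limbs at 36.5, 53.6 and 55.7 CPM, with no overlap. The within-animal difference was -0.90 ± 0.16, 1.86-fold (adjusted p = 0.0021, limma), and it passed with each repeated atrophy animal left out. Against control it was -0.69 ± 0.32 (adjusted p = 0.10), which passed with a block on animal (-0.90, adjusted p = 0.0081) and after rescaling (-1.06, adjusted p = 0.012). Recovery left limbs, at 22.7, 20.6 and 22.8 CPM, were below all 9 control limbs (26.8 to 87.1 CPM), and their own right limbs were at 26.8, 33.5 and 26.8 CPM. The difference from control of -0.88 ± 0.32 did not pass (adjusted p = 0.092), but did after rescaling (-0.91, adjusted p = 0.048) and with the median of ratios. Paired by animal it was -0.38 ± 0.16 (adjusted p = 0.21), with an adjusted p of 0.31 against control with the animal block, and -0.51 after rescaling (adjusted p = 0.12). In atrophy, left limbs were at 23.6, 49.6 and 48.1 CPM and right limbs at 29.7, 51.1 and 87.1 CPM, a difference of -0.40 ± 0.16 (adjusted p = 0.17). That difference ranged from -0.58 ± 0.18 without animal 2 (adjusted p = 0.046) to -0.18 without animal 3, which did not pass. The sham pairs differed by -0.06 ± 0.16.

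Cebpd encodes C/EBP delta, a transcription factor induced by glucocorticoids and by inflammatory cytokines (chr11:84764670-84765809, rn7, plus strand). In repeated atrophy the left limbs were at 4.98, 3.55 and 3.97 CPM and the right limbs at 7.77, 15.8 and 20.4 CPM. All 3 left limbs lay below every one of the 9 control limbs, which ran from 7.33 to 52.7 CPM with a median of 11.1 CPM. The difference was -1.51 ± 0.30 within animals, 2.86-fold (adjusted p = 0.0033, limma), and -1.61 ± 0.52 against control (adjusted p = 0.024). Both passed after rescaling (-1.83, adjusted p = 0.0027, and -1.92, adjusted p = 0.010). Without repeated atrophy animal 2 or 3 the comparison against control no longer passed (adjusted p = 0.12 and 0.096), while within animals Cebpd passed with any 1 of them left out. Atrophy left limbs ran from 4.25 to 31.6 CPM, and recovery left limbs were at 6.38, 6.43 and 10.3 CPM beside right limbs at 7.33, 11.1 and 10.4 CPM. The sham animals differed 14.9-fold among their left limbs, from 6.11 to 90.9 CPM, and by 0.04 ± 0.30 between limbs.

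Arrdc2 encodes an arrestin domain-containing protein of the family that acts as adaptor in receptor trafficking and is induced by glucocorticoids (chr16:18601897-18606030, rn7, plus strand). In repeated atrophy it was at 6.41, 6.14 and 6.91 CPM on the left and at 36.4, 34.1 and 90.5 CPM on the right. In recovery it was at 4.50, 4.71 and 7.98 CPM on the left and at 10.6, 15.9 and 35.7 CPM on the right. Both groups of left limbs lay below all 9 control limbs, which ran 18.1-fold from 10.6 to 192 CPM. The differences from control were -2.47 in repeated atrophy and -2.66 in recovery on the log2 scale, 5.54-fold and 6.31-fold. The recovery animals' own right limbs were at the low end of the control range or at its median, and within animals the differences were -2.72 in repeated atrophy (6.60-fold) and -1.56 in recovery (2.95-fold). In atrophy the left limbs were at 7.78, 109 and 43.0 CPM and the right limbs at 25.2, 80.1 and 192 CPM, so that animal 2 was higher on the left while the others were lower. That made -1.09 within atrophy animals, -1.86 without animal 2 and -0.57 without animal 3. Sham left limbs were at 50.6, 18.6 and 231 CPM and sham right limbs at 69.6, 27.0 and 190.8 CPM.

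Ddit4 encodes REDD1, an inhibitor of mTORC1 that is induced by glucocorticoids, low oxygen and energy stress (chr20:27891989-27894089, rn7, minus strand). Repeated atrophy left limbs were at 8.21, 15 and 15.9 CPM and right limbs at 14.2, 25.8 and 23.2 CPM. The ratio was alike in the 3 animals, between -0.74 and -0.52 on the log2 scale, although the groups overlapped. Ddit4 fell, with a difference of -0.66 ± 0.18 within animals, 1.58-fold (adjusted p = 0.013, limma), and of -1.06 ± 0.40 against control (adjusted p = 0.049). Rescaling kept both (-1.02, adjusted p = 0.0025, and -1.42, adjusted p = 0.012), as did the animal block against control (-0.66, adjusted p = 0.031). Leaving out any 1 repeated atrophy animal ended the call against control (adjusted p from 0.077 to 0.14), as did leaving out atrophy animal 3 or recovery animal 2 or 3, and leaving out animal 2 ended the one within animals (-0.62, adjusted p = 0.078). In recovery, left limbs at 17.9, 17.6 and 29.9 CPM faced right limbs at 15.1, 22 and 36.2 CPM, and in atrophy, left limbs at 19.7, 54.4 and 28.6 CPM faced right limbs at 21, 67.1 and 55.1 CPM. Neither difference passed (-0.12, adjusted p = 0.74, and -0.43, adjusted p = 0.17).

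Ddit4l2 (chr2:226128388-226131045, rn7, plus strand), whose symbol marks it as a relative of the REDD2 gene, had the largest difference of the 9 genes in repeated atrophy. There the left limbs were at 3.64, 3.69 and 3.66 CPM, within 1.01-fold of each other, while the right limbs were at 120.5, 111 and 63.1 CPM. This amounted to -4.36 ± 0.38 on the log2 scale within animals, 20.5-fold, and -4.31 ± 0.39 against control. The sham animals, in contrast, stood at 174, 80.9 and 32.0 CPM on the left and 150.3, 90.4 and 40.9 CPM on the right, a difference of -0.10. In atrophy animals 1 and 3 the left limbs were at 16.7 and 10.5 CPM beside right limbs at 97.1 and 83.2 CPM, whereas animal 2 was at 94.0 CPM on the left and 103 CPM on the right. The atrophy difference was thus -1.83 with all 3 animals, -2.67 without animal 2 and -1.30 without animal 3. After recovery, left limbs at 84.3, 75.8 and 64.3 CPM were each slightly below right limbs at 96.0, 83.5 and 80.3 CPM, by -0.21.

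**Figure D2:**
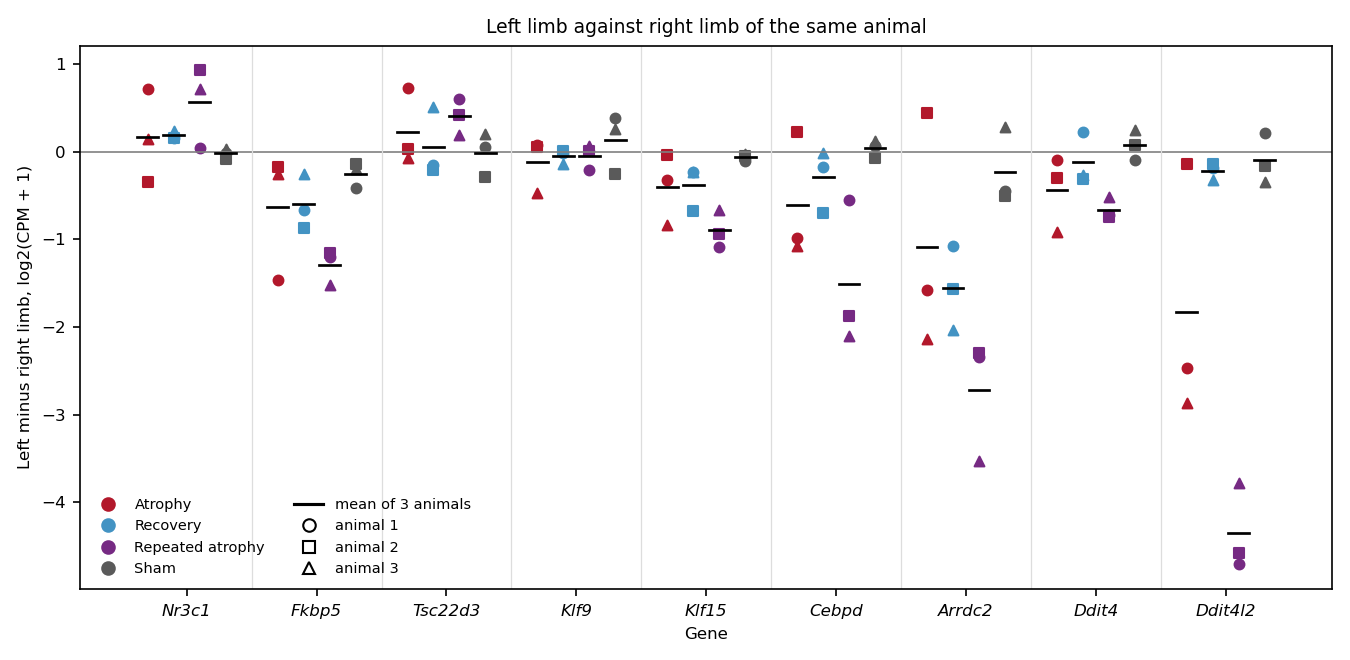
Difference of the left from the right limb, per animal, in log2(CPM + 1) for the 9 genes, coloured by group, with bars for the mean of 3 animals. Ddit4l2 and Arrdc2 show the largest drops in repeated atrophy (means of -4.36 and -2.72), and the sham means lie between -0.25 and 0.13.

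Against the sham animals, the left to right difference of repeated atrophy was tested directly, with animal as a block. None of the 7 genes passed (limma), where 4.36% of all rows passed, and 5 of the 7 had an unadjusted p below 0.05, as did 26.6% of all rows. The differences from sham were -1.04 ± 0.30 for Fkbp5 (adjusted p = 0.062), -0.83 ± 0.23 for Klf15 (adjusted p = 0.055), -1.55 ± 0.43 for Cebpd (adjusted p = 0.056) and -0.74 ± 0.25 for Ddit4 (adjusted p = 0.090). For Nr3c1 it was 0.59 ± 0.27 (adjusted p = 0.19). These values sat close to the threshold, and 1 to 3 of the genes passed under several alternatives. Among them were Klf15 and Ddit4 after rescaling (adjusted p = 0.033 and 0.047), where 503 of 14134 rows passed. Without atrophy animal 2, Fkbp5, Cebpd and Klf15 passed, where 12.1% of all rows did and 2.69% of all rows were lower. Without sham animal 3 none did, with an adjusted p of 0.17 for Fkbp5, Cebpd and Klf15. The atrophy and recovery differences from sham gave no call in the 7 genes or in any row, with no unadjusted p below 0.05 among the 7. Sham left limbs against control gave no call either, in the 7 genes or in any row, again with no unadjusted p below 0.05 among the 7.

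Between the left limbs of the TTX groups, limma also passed none of the 7 genes. In recovery against atrophy 17.9% of all rows passed, and Tsc22d3 and Klf9 had an unadjusted p below 0.05, as did 33.8% of all rows. In repeated atrophy against recovery 27.2% of all rows passed, and Tsc22d3 (0.86 ± 0.35, adjusted p = 0.074) had an unadjusted p below 0.05, as did 39.9% of all rows. In repeated atrophy against atrophy 0.0356% of all rows passed, and Cebpd and Ddit4 (-1.67 ± 0.64 and -1.26 ± 0.49, adjusted p = 0.64 and 0.65) had an unadjusted p below 0.05, as did 6.30% of all rows. When the left to right differences themselves were compared, none of the 7 genes and 0% of all rows passed between repeated atrophy and atrophy, with Fkbp5 at -0.67 ± 0.30 (adjusted p = 0.64) the 1 gene with an unadjusted p below 0.05, against 7.76% of all rows. Between repeated atrophy and recovery none of the 7 passed, where 2.31% of all rows did, with Fkbp5, Klf15, Cebpd and Ddit4 and 22.9% of all rows below 0.05 before adjustment. Between recovery and atrophy none of the 7 passed, where 0.0637% of all rows did, and none was below 0.05 before adjustment. The fall of these genes in repeated atrophy was thus not shown to exceed that after the first period of TTX.

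**Figure D3:**
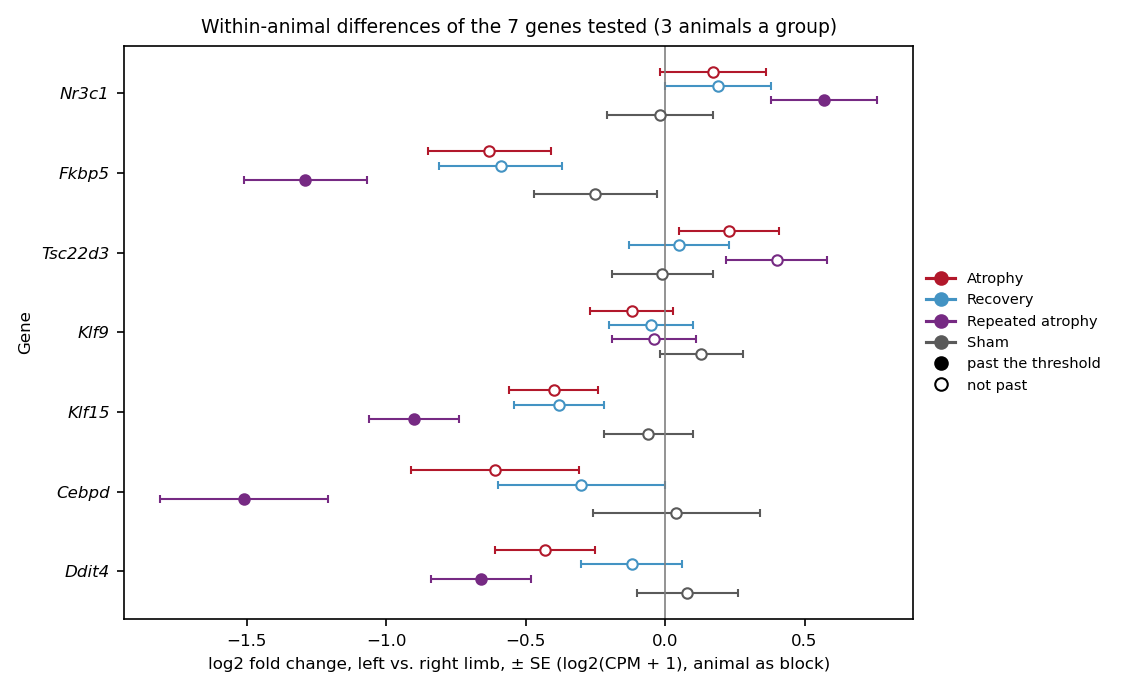
Left against right log2 fold change with its SE for the 7 genes tested, 3 animals a group, with filled symbols for those past the threshold. All 5 filled symbols belong to repeated atrophy, and the sham estimates of the 7 genes lie between -0.25 and 0.13.

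The right limbs, which received no TTX, were compared among themselves because glucocorticoids circulate and reach both limbs. Right limbs of TTX animals and of sham animals did not differ in any of the 7 genes or in any of 13848 rows (0% called, limma), and no gene of the 7 had an unadjusted p below 0.05. Klf15 came to -0.66 ± 0.34 (adjusted p = 0.56) and Cebpd to -0.82 ± 0.63 (adjusted p = 0.61), in TTX relative to sham animals. Both values turned on single sham animals: without sham animal 3 they were -0.24 and -0.01, and without sham animal 2 they were -1.07 and -1.76. Across the 3 time points 0% of rows passed as well, while Fkbp5 and Tsc22d3 had an unadjusted p below 0.05, as did 9.32% of all rows. Right-limb Fkbp5 was 31.5 to 51.0 CPM in recovery animals, 62.9 to 146 CPM in atrophy animals and 103 to 162 CPM in repeated atrophy animals. Recovery and repeated atrophy right limbs did not overlap and differed by 1.63 ± 0.34 (adjusted p = 0.73). Each time point was a different set of 3 animals, so differences between time points also hold the spread between animals.

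Whether both limbs of 1 animal share a level beyond the group was read next. Each limb's log2 value was taken as a deviation from its group mean, and left and right deviations were correlated over the 12 animals, with an exact two-sided permutation test of all pairings within groups and adjustment over all 9 coefficients computed. Each sham animal came from a different time point, so in the sham group animal and time point cannot be told apart. The median r of the 9 genes was 0.85, and that of all 6544 expressed symbols was 0.38 (quartiles 0.09 and 0.60). After rescaling the medians were 0.78 and 0.40. Before adjustment, the permutation p for r was 0.05 or less for 5 of the 7 genes tested and for 9.49% of all expressed symbols, and after rescaling for 2 of the 7 and 10% of all. Ddit4 had the closest match, with r = 0.94 and rho = 0.93 (permutation p = 0.0031 for both, adjusted p = 0.014), and r = 0.89 without the 2 animals farthest from the median. For Fkbp5, r was 0.85 and rho 0.83 (permutation p = 0.0062 and 0.011, adjusted p = 0.019 and 0.024), with r = 0.71 without the 2 farthest. For Tsc22d3, r was 0.67 and rho 0.78 (permutation p = 0.0031 for both, adjusted p = 0.014), with r = 0.77 without the 2 farthest.
Klf15 gave r = 0.90 and rho = 0.83 (permutation p = 0.019 for both, adjusted p = 0.029), with r = 0.80 without the 2 farthest. Klf9 gave r = 0.89 and rho = 0.85 (permutation p = 0.011 and 0.018, adjusted p = 0.024 and 0.029), with r = 0.75 without the 2 farthest. Cebpd had r = 0.87 and rho = 0.66, which did not pass (permutation p = 0.062 and 0.093, adjusted p = 0.070 and 0.11), and r = 0.65 without the 2 farthest. Arrdc2 and Ddit4l2, given without a test, had r = 0.78 and 0.62 and rho = 0.86 and 0.64. Without the 2 farthest animals r was 0.75 for Arrdc2 and 0.27 for Ddit4l2, where both animals left out were sham. Nr3c1 was the exception, with r = -0.21 and rho = -0.17 (permutation p = 0.65 and 0.71, adjusted p = 0.65 and 0.71), and r = 0.39 without the 2 farthest.
The number of the 7 genes that passed for r fell from 5 to 2 (Fkbp5 and Ddit4) after rescaling, to 2 without any 1 of the sham animals (Tsc22d3 and Ddit4), and to 3 without atrophy animal 1 or any 1 of the repeated atrophy animals (Fkbp5, Tsc22d3 and Ddit4).

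**Figure D4:**
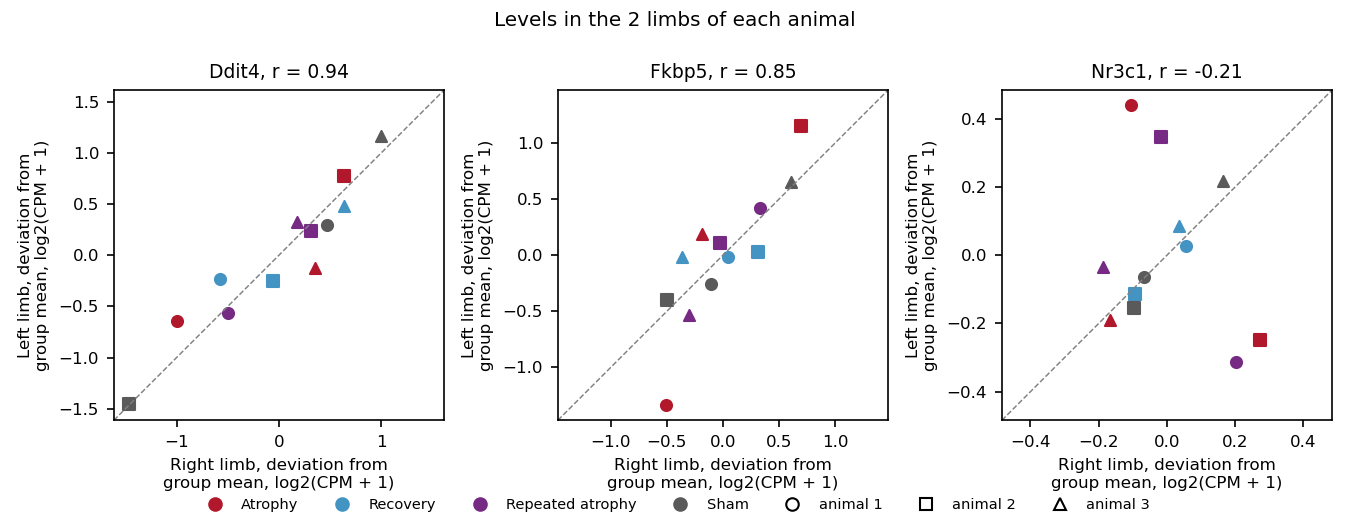
Deviation of the left limb from its group mean against that of the right limb, in log2(CPM + 1), for Ddit4, Fkbp5 and Nr3c1 in 12 animals, with the line of equality dashed. Ddit4 and Fkbp5 follow the line (r = 0.94 and 0.85), and Nr3c1 does not (r = -0.21).

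Levels between genes were compared in CPM per kilobase of transcript over the 9 control limbs. Ddit4l2 was highest at 128 ± 24.1 (SD), followed by Tsc22d3 at 86.8 ± 33.7 and Klf9 at 75.9 ± 24.2. Fkbp5 (25.7 ± 13.6), Arrdc2 (25.0 ± 24.7), Klf15 (18.1 ± 8.01), Ddit4 (18 ± 10.7), Cebpd (15.8 ± 12.8) and Nr3c1 (12.6 ± 1.52) formed a lower group. Neighbours in this order overlapped within 1 SD except Klf9 and Fkbp5. Nr3c1 varied least over the 24 limbs, 2.16-fold in CPM from lowest to highest, whereas Arrdc2 varied 51.4-fold and Ddit4l2 47.7-fold.

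Other genes of the pathway were read from 4 lists, chosen with earlier results of these data known, against the same backgrounds as the members. Within repeated atrophy animals 26.1% of all rows were higher and 6.51% lower, with a median of 0.20, and after rescaling 25.3% of all rows passed and 12% of all rows were lower. The counts of a list are a description beside these shares. Of 14 genes for the receptor's chaperones and the handling of the hormone, 7 rose and 1 fell within repeated atrophy animals, and 2 rose and 1 fell after rescaling. Hsp90aa1, a chaperone that holds the receptor in its hormone-binding state, rose by 1.59 ± 0.24 (adjusted p = 0.0010, limma), and Fkbp4, the immunophilin that competes with FKBP51 in the complex, fell by 1.15 on the log2 scale (adjusted p = 7.9e-04). Both passed after rescaling. Hsd11b1, the enzyme that regenerates active glucocorticoid in the cell, rose in recovery by 1.66 ± 0.30 within animals (adjusted p = 0.037) and 2.05 ± 0.28 against control (adjusted p = 0.0011), from a mean of 7.31 CPM in control to 33.8 CPM, with means of 10.3 CPM in atrophy and 11.7 CPM in repeated atrophy. The summed fibroblast markers moved with it, at 212 to 626 CPM in control limbs and 1240 to 2350 CPM in recovery limbs, and so did those of macrophages and leukocytes (84.4 to 309 and 335 to 645 CPM). Against control 5 of 6 fibroblast markers and 2 of 6 macrophage and leukocyte markers rose, as did 617 of 14031 rows. Within recovery animals 1 of 6 and 0 of 6 rose, as did 68 of 14134 rows. After rescaling these counts were 6 and 5 against control, and 4 and 1 within animals. The right limbs of the recovery animals summed to 429 to 626 CPM of fibroblast markers. The part of either cell type in the rise of Hsd11b1 was not tested.

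Of 25 other genes that glucocorticoids are known to induce, 7 rose and 6 fell within repeated atrophy animals (median -0.06), and 6 and 9 after rescaling. The metallothioneins Mt1 and Mt2A, which bind zinc, rose by 4.05 ± 0.62 (adjusted p = 0.0010, limma) and 3.58 ± 0.61 (adjusted p = 0.0017). Cdkn1a, the cell cycle inhibitor p21, rose by 3.06 ± 0.63 (adjusted p = 0.0037), and Errfi1, an inhibitor of the EGF receptor, by 1.72 ± 0.32 (adjusted p = 0.0024). In the opposite direction, the phosphatase gene Dusp1 fell by 1.51 on the log2 scale (adjusted p = 0.0027), the transcription factor gene Zbtb16 by 1.19 (adjusted p = 0.014) and Bcat2, for the mitochondrial branched-chain aminotransferase, by 1.01 (adjusted p = 0.0043). All of these passed after rescaling. In recovery 1 rose and 3 fell of the 25 against control, where 7.73% of all rows passed, and those that fell were Glul (glutamine synthetase, -1.73, adjusted p = 0.033), Zbtb16 (-1.37, adjusted p = 0.028) and Bcat2 (-1.04, adjusted p = 0.0098). After rescaling 2 rose and 5 fell, where 6.02% of all rows were higher and 6.04% lower. Within recovery animals limma called 0 of the 25 in either direction, with 10 at an unadjusted p below 0.05, as were 21.3% of all rows. After rescaling 1 of the 25 was lower within recovery animals, as were 200 of 14134 rows.

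Of 34 measured genes of mTORC1, its brakes and its readers, 14 rose and 2 fell within repeated atrophy animals, against 5 and 4 after rescaling. Castor2, of the arginine sensor family, rose by 1.70 ± 0.23 (adjusted p = 7.7e-04, limma), and Rps6kb1, the S6 kinase that mTORC1 activates, by 1.27 ± 0.21 (adjusted p = 0.0013). The Rag GTPase gene Rraga rose by 1.09 ± 0.18 (adjusted p = 0.0016). Eif4ebp2, a translation repressor that mTORC1 inactivates, fell by 1.08 (adjusted p = 0.0028), and the mTORC1 brake Sesn1 fell by 1.03 (adjusted p = 0.0011), both on the log2 scale. These 5 passed after rescaling. Of 24 relatives of the members by family, 6 rose and 4 fell, with Fkbp1a up by 1.16 ± 0.20 (adjusted p = 0.0018) and Tsc22d1 down by 0.90 (log2 difference -0.90, adjusted p = 0.0019). After rescaling the 24 relatives split into 1 higher and 7 lower. When the limb difference of repeated atrophy was set against that of sham animals, where 4.36% of all rows passed, fewer genes of each list were called: 0 higher and 1 lower of the 14 receptor and hormone genes, 1 and 1 of the 25 induced genes, 2 and 1 of the 34 mTORC1 genes, and 0 and 2 of the 24 relatives. After rescaling, Mt1 no longer passed (adjusted p = 0.06, limma), which left 0 higher and 1 lower of the 25. The counts of the other lists stayed the same, and 503 of 14134 rows passed. The 8 myofibre markers summed to 156000 to 212000 CPM in control limbs and 110000 to 137000 CPM in repeated atrophy, but none of them was called lower within repeated atrophy animals, and 1 (Mb, myoglobin) was higher, by 1.11 ± 0.30 (adjusted p = 0.014), which did not pass after rescaling (adjusted p = 0.17). The 5 muscle stem cell markers summed to 9.61 to 17 and 40.4 to 71.4 CPM, and 1 of them passed, Myf5, with means of 4.64 CPM in control and 43.5 CPM in repeated atrophy, while the median of the 5 log2 fold changes within animals was 0.13. Of the 6 endothelial markers, 0 were called within repeated atrophy animals (median -0.28). After rescaling 5 of the 6 were lower (median -0.66), where 12% of all rows were. The part of these markers in the counts above and in the falls of the members was not tested.

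The patterns most like 8 of the members over the 24 limbs were read as Pearson correlations of log2(CPM + 1) among 6543 expressed genes, a description in which the points share animals and groups. For Arrdc2 the closest genes were Klf15 and Cebpd (both r = 0.91), and for Cebpd they were Arrdc2 and Klf15 (both 0.91) and Ddit4 (0.90). Klf15 was closest to Sgms1 (0.95), Lipe and Acsf2 (both 0.94), and Ddit4 to Nfkbia (0.92). Ddit4l2 stood outside this group, with Masp1, Cmbl and Scn4b closest (each 0.96) and coefficients with the other members between -0.58 (Nr3c1) and 0.37 (Arrdc2). Klf9 was closest to Azi2 (0.94), Tsc22d3 to Ddx24 (0.90) and Nr3c1 to Tbl1xr1 (0.91).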

How the data were processed

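The deposited values are CPM (counts per library scaled to a common total). The authors made them in Partek from reads aligned to the rat genome rn7, and the submitters' processing notes name STAR, Bowtie2 2.2.5 and DESeq2. The counting step and its use of strand are not given in the sources used here. Each column summed to 1000000 CPM, and whole reads could not be recovered, so no count test was run. Of 27 value columns, 24 matched a sample and 3 were not used. The table had 14271 rows, of which 28 exact duplicates were dropped, and the row of highest mean stood for a symbol with several rows. Depth per sample, inferred from the steps of low values, was 18900000 to 30900000 reads (median 26100000), so that 1 read was worth at most 0.053 CPM.

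Values were taken as log2(CPM + 1), rows above 0 in at least 3 samples were kept, and limma 3.58.1 (R 4.3.3) was fitted with an intensity trend on all rows. The groups fit used 18 limbs. The within-animal fit used 24 limbs with animal as a block, the labels giving left and right limbs of 1 animal. The 12 right limbs were fitted alone, and sham left limbs were compared with control in a fit of their own. Contrasts against control share the same 9 limbs. The threshold was a 1.2-fold change and an adjusted p of 0.05. P-values of the within-animal fit measure the spread of the limb difference between animals. In the groups fit, left and right limbs of the same animals were treated as independent, so its p-values leave out that pairing. In the fits of right limbs and of sham left limbs against control, each animal gave 1 limb. Their p-values measure the spread between animals. On simulated data with 200 changed genes, 49.5% were recovered for repeated atrophy against control (7.5%, 43.3% and 98.5% at 1.5-, 2- and 4-fold). The shares were 41.5% for left against right in repeated atrophy animals (26.9% at 2-fold) and 16.5% for repeated atrophy against sham (1.5% at 2-fold and 48.5% at 4-fold). The simulation gave every gene the same dispersion (0.05), not fitted to the members. Over control limbs the members spread from 1.49-fold (Nr3c1) to 18.1-fold (Arrdc2), so these shares are no measure of power for them. Alternatives were pseudocounts of 0.1 and 10, 2 other filters, 3 other scalings, rows summed per symbol, no trend, sham right limbs added to control, the animal block or its absence, and leaving out each animal. Genes were named as members, as the 3 closest genes to each member among genes of mean of at least 10 CPM, and, of each list, as up to 4 genes a direction with the largest change past the threshold and a group mean of at least 10 CPM. Correlations, figures and tables used Python 3.11.15, numpy 2.4.6, scipy 1.17.1, pandas 2.3.3 and matplotlib 3.10.9. Members and lists were chosen with earlier results of these data known. Of the genes this rule names, 2 are not reported here.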

Additional observations from a re-analysis of the deposited data

Results flagged for a closer look

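Among the 9 control limbs, 1 limb stood far above the others for 2 of the 7 genes tested, and it was the same limb each time, the right limb of atrophy animal 3. It held 87.1 CPM of Klf15 and 52.7 CPM of Cebpd, against medians of 36.5 and 11.1 CPM over the control limbs. In each case the gap to the next limb, divided by the range, was above Dixon's 95% critical value for 9 samples (0.493), at 0.521 for Klf15 and 0.571 for Cebpd. This held for CPM and not on the log2(CPM + 1) scale of the tests, where the ratios were 0.382 and 0.354. The same limb held the highest level of Arrdc2 among the control limbs, 192 CPM, given without a test. The genes were compared in 7 groups in all, and chance alone marks about 1 in 20 groups. The cause was not tested.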

How the results depend on the processing

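None of the 8 differences that passed changed direction under any alternative, while 41 of the 97 tested differences that did not pass changed sign under at least 1. Differences that passed lay farther from 0 relative to their SE by the threshold itself, so this contrast is a description. Nr3c1, Cebpd and Ddit4 are each among the 8 both within animals and against control. In atrophy against control, rescaling by the trimmed mean moved Nr3c1 from 0.21 to -0.15, Klf9 from 0.23 to -0.13, Cebpd from 0.06 to -0.26 and Ddit4 from 0.20 to -0.15, and leaving out atrophy animal 1 moved Fkbp5 from -0.42 to 0.21. In recovery against atrophy, the animal block moved Fkbp5 from -1.09 to 0.03 and Cebpd from -0.94 to 0.31. Counts of genes past the threshold, of 7, moved as follows. The share of all rows that passed also moved between alternatives. Where that share is not printed beside a count, the count describes the 7 genes and is not a result against all rows. For recovery against control, 0 became 2 (Fkbp5 and Klf15) under both the trimmed mean and the median of ratios, where the share of all rows that passed rose from 7.73% to 12.1%, 1 (Fkbp5) under quantile normalization, a mean of at least 10 CPM or 12 right limbs as control, and 0 to 1 on leaving out 1 animal. For repeated atrophy against control, 3 became 1 (Nr3c1) with a pseudocount of 10 and 0 to 3 on leaving out 1 animal, with 0 without repeated atrophy animal 2 or 3. For recovery against atrophy, 0 became 1 (Tsc22d3) with a pseudocount of 0.1, a mean of at least 10 CPM, summed rows or 12 right limbs, and 0 to 1 on leaving out 1 animal. For repeated atrophy against recovery, 0 became 1 (Tsc22d3) with a mean of at least 10 CPM, and 0 to 1 on leaving out 1 animal (without recovery animal 3). Within animals, leaving out 1 animal gave 0 to 3 for atrophy, 0 to 1 for recovery (Fkbp5, without atrophy animal 1) and 3 to 5 for repeated atrophy. For repeated atrophy against sham, 0 became 1 (Cebpd) with a pseudocount of 0.1, 2 (Klf15 and Ddit4) with the trimmed mean or the median of ratios, 3 (Fkbp5, Klf15 and Ddit4) with quantile normalization, 3 (Fkbp5, Cebpd and Klf15) with a mean of at least 10 CPM, 2 (Cebpd and Klf15) with summed rows, and 0 to 3 on leaving out 1 animal. Of the 7 between-limb correlations tested, 5 became 2 with the trimmed mean or the median of ratios, 3 with quantile normalization, and 2 to 5 on leaving out 1 animal. The cause of these moves was not tested.

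The animal as a block (pairing of the limbs) raised the count for repeated atrophy against control from 3 to 4, and without the replicate block the count within repeated atrophy animals was 2 in place of 5. Both counts are given without the share of all rows under the same setting, and are a description. The block changed no other count, while it lowered the share of all rows that passed for recovery against control to 0.0641%. With the trimmed mean, the split of all rows moved from 2844 higher and 327 lower to 663 and 695 for atrophy against control, from 469 and 2036 to 770 and 729 for recovery against atrophy, from 2941 and 882 to 1479 and 1564 for repeated atrophy against recovery, and from 418 and 198 to 218 and 285 for repeated atrophy against sham. Groups of 3 animals and 1 sham animal per time point limit every comparison, and differences of 2-fold or less were mostly not recovered in simulated data. At 2-fold, 43.3% were recovered for repeated atrophy against control, 26.9% within repeated atrophy animals and 1.5% for repeated atrophy against sham.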
